A study of Mus musculus with 10 samples.

Results

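The interleukin-1 family and its receptors were followed through 10 genes of the deposited table, chosen by name: the agonist genes Il1a, Il1b, Il18 and Il33, the antagonist gene Il1rn, the binding protein gene Il18bp, the signalling receptor genes Il1r1, Il1rap and Il1rl1, and the decoy receptor gene Il1r2. The choice was made with earlier results of these data known. All 10 were present among the 43346 genes of the table, and all 10 passed the filter on low values that left 17859 genes for testing. RNA had been sequenced from the vein draining arteriovenous fistulas, in mice on a C57 background that carried human CX3CR1, the fractalkine receptor, as a knock-in. All animals had chronic kidney disease, induced 28 days before carotid artery and jugular vein were joined, and veins were taken 7 days after that operation. The 5 antibody libraries came from mice given an antibody at 30 mg/kg intraperitoneally, with 2 injections a week, and the 5 vehicle libraries from mice given the same volume of vehicle. The labels name an antibody to human CX3CR1 in the treatment text and a fractalkine antibody in the title, and do not say whether each library is a separate animal, so p-values measure the spread between these libraries, which may be technical.

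Interleukin-1 alpha and beta bind the receptor encoded by Il1r1, which then recruits the accessory protein encoded by Il1rap and signals through MyD88 to NF-kappaB. The product of Il1rn occupies the same receptor without recruiting the accessory protein, and the product of Il1r2 binds the cytokines without a signalling domain. Interleukin-33 uses Il1rl1 (ST2) with the same accessory protein, while interleukin-18 has its own receptor pair and is neutralised in solution by the product of Il18bp. In vessel walls interleukin-1 beta is known as a product of infiltrating myeloid cells that acts on endothelium, smooth muscle and fibroblasts.

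The start regions of the agonist genes are shown because 3 of the 10 genes carry the letters TATAAA close to an annotated start. RefSeq windows (GRCm38.p6) were matched for 10 genes, 15 windows in all. The windows below run 5′ to 3′ on the strand of the gene from 45 to 16 bases before the start, and capitals mark TATAAA. They lie at chr2:129309988-129310017 (minus strand) for Il1a, at chr2:129371155-129371184 (minus strand) for Il1b and at chr19:29945745-29945774 (plus strand) for the second annotated start of Il33.
Il1a: gcttgaggaagacTATAAAaaggcagagaa
Il1b: ctgctttttaggacTATAAAacaagggagg
Il33, second start: ttaatctgagctaccaTATAAAtagaactg
Among 32817 windows of the reference table, 603 (1.84%) had TATAAA on the strand of the gene within 35 to 15 bases before the start. That share counts single windows, of which the 10 genes had 15, with TATAAA so placed in the 3 shown.

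The whole 250 bases before the start are given for Il1b (chr2:129371140-129371389, minus strand) and for the first start of Il33 (chr19:29924863-29925112, plus strand), the agonist genes with the largest fitted differences between the groups. Capitals mark TATAAA, and in Il1b also ACTTCC, which is GGAAGT on the other strand, the core bound by ETS-family factors such as PU.1.
Il1b: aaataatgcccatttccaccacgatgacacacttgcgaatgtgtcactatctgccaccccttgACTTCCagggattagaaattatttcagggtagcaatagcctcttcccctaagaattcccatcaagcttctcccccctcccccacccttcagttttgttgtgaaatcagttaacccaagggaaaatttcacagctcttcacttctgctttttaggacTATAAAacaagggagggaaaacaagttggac
Il33, first start: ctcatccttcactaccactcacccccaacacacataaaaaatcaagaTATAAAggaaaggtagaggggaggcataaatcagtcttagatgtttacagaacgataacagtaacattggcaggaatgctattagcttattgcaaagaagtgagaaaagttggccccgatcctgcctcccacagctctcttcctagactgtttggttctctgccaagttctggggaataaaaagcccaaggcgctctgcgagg
Searched on both strands of the 250 bases, GGAAGT was in the windows of 5 of the 10 genes (Il1b, Il1r1, Il1r2, Il1rl1 and Il18bp) and in 19.7% of all windows. TATAAA was in 4 genes and 12.4% of windows, TGANTCA (AP-1) in 2 genes and 6.75%, and TTGCNNAA (a C/EBP-like pattern) in 4 genes and 9.57%. In Il18bp the matches of TTGCNNAA and GGAAGT overlap. The 10-base NF-kappaB consensus was in 1 gene, at the second start of Il1r1, and in 7.25% of windows, and an interferon-response pattern was in 0 genes and 2.97%. A gene was counted if any of its windows held the pattern. The 10 genes had 15 windows, so counts of genes can run above a share of single windows. These are matches of letters only.

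Libraries held 4282872 to 34271554 reads, antibody replicate 3 being the shallowest and vehicle replicate 4 the deepest, and the labels give no batch. The summed level of 6 skeletal muscle genes was 279 to 3078 RPKM in antibody libraries and 477 to 5500 RPKM in vehicle libraries, and that of 6 kidney tubule genes 3.22 to 61.9 RPKM in antibody libraries and 5.46 to 57.6 RPKM in vehicle libraries. Vessel wall markers were read in all libraries: 7 endothelial genes summed to 153 to 196 RPKM after antibody and 151 to 195 RPKM after vehicle, and 6 smooth muscle genes to 266 to 544 RPKM after antibody and 372 to 586 RPKM after vehicle. The smooth muscle sum includes Des, which skeletal muscle also expresses, so it may not be of vessel wall alone. Des was at 101 ± 130 RPKM after antibody and 148 ± 117 RPKM after vehicle (mean and SD). All levels here are reads scaled to exon length and library size (RPKM), corrected for the composition of each library. Between genes they compare only roughly, since 1 exon length was used per gene, from 714 bases for Il18 to 11360 bases for Il1rap. A gene whose transcripts in these veins are shorter than that length would read too low. The gene models of Il18 and Il18bp differ in span from the annotation GENCODE M21, which further limits the comparison for those genes.

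The comparison asked which of these transcripts differ between antibody-treated and vehicle-treated fistula veins. None of the 10 passed the threshold, a limma p below 0.05 after Benjamini-Hochberg adjustment over all 17859 genes. The fitted difference was above 0 in 8 of the 10 genes, against 48.8% of all genes tested, and the median log2 difference was 0.37, against -0.01 over all genes. At an unadjusted limma p below 0.05 there were 4 genes, Il1b, Il1r2, Il33 and Il1rap, all higher in antibody veins, where 6.53% of all genes were at that p, 3.55% higher and 2.98% lower. The 10 genes were chosen with earlier results of these data known, and Il1b and Il1r2 vary together. These shares are therefore not a test of the family. With adjustment 0 of 17859 genes (0%) were called, and the smallest adjusted p of the table was 0.739. Scaling by library totals gave 775 genes higher and 216 lower at an unadjusted p below 0.05, against 634 higher and 532 lower here.

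**Figure D1:**
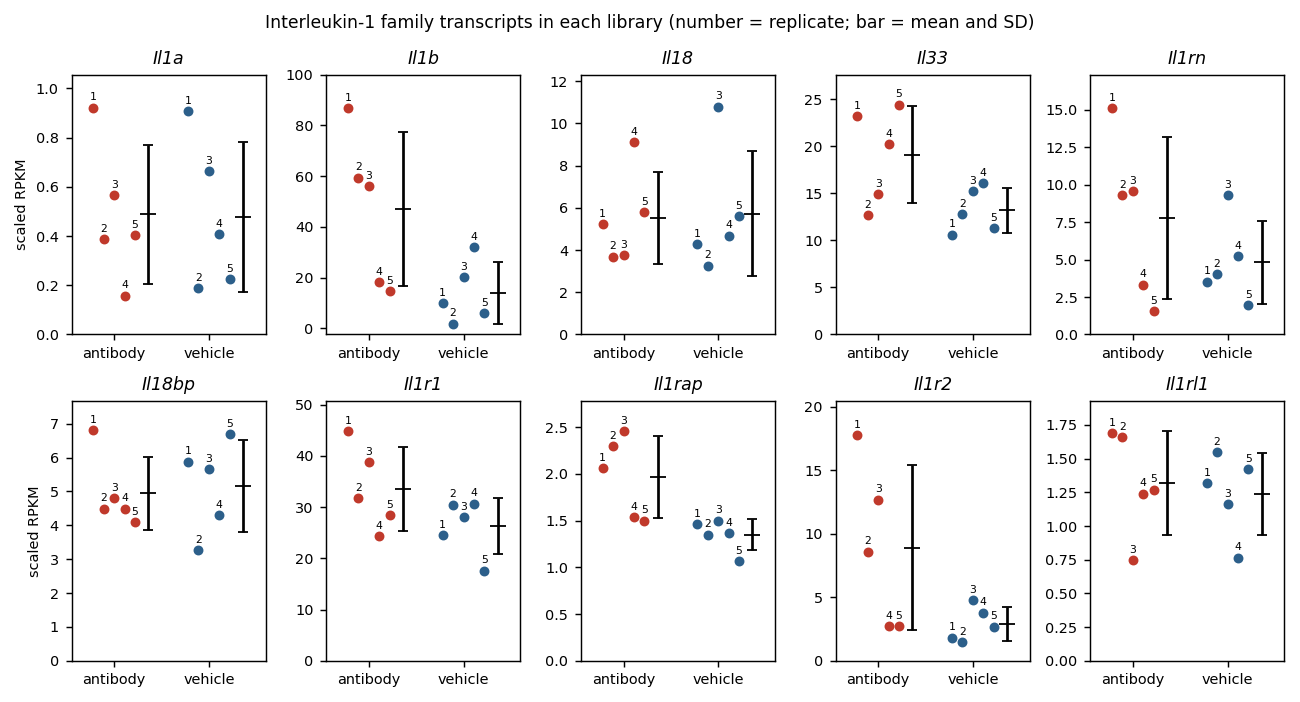
Level of each of the 10 genes in scaled RPKM (vertical axes, linear) in the 5 antibody and 5 vehicle libraries. Points are libraries labelled by replicate number, and bars give the mean and SD (n = 5). Il1b and Il1r2 are high in antibody replicates 1, 2 and 3, while antibody replicates 4 and 5 lie within the vehicle range.

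Il1b, which encodes interleukin-1 beta, had the largest difference of the 10 genes (chromosome 2, 129364570 to 129371139, mm10). It stood at 86.7, 59.4, 55.9, 18.3 and 14.7 RPKM in antibody replicates 1 to 5, and at 9.84, 1.81, 20.3, 32.1 and 6.08 RPKM in vehicle replicates 1 to 5. Antibody replicates 1, 2 and 3 lay above the highest vehicle library, replicates 4 and 5 inside the vehicle range, and all 5 above the vehicle median. Antibody over vehicle, the fit gave 3.80-fold (log2 1.92, SE 0.73, 95% interval 1.25-fold to 11.6-fold, exact two-sided permutation p = 0.0556, limma adjusted p = 0.739, n = 5 each). Over all 10 libraries the highest level was 48.0 times the lowest, the widest range in the family, and the coefficient of variation was 64.6% in antibody and 87.0% in vehicle veins. In whole vein, more cells of a type and more RNA per cell cannot be told apart. The antisense gene Il1bos overlaps Il1b but held 94 reads over all libraries, where Il1b held 74 to 2359 in each; whether the authors counted by strand is not known here.

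Il1a, the other agonist of the same receptor, was close to the low end of what could be measured. It stood at 0.922, 0.389, 0.567, 0.158 and 0.404 RPKM in antibody replicates 1 to 5 and at 0.907, 0.189, 0.665, 0.407 and 0.226 RPKM in vehicle replicates 1 to 5, on 4 to 35 reads a library. Gm14023 overlaps Il1a on the other strand and held 71 reads over all libraries. Reads of the pair may not be fully separable if strand was not used. The groups overlapped over nearly their whole ranges in Il1a. The fitted ratio was 1.02-fold (SE 0.24 on the log2 scale, 95% interval 0.700-fold to 1.47-fold). The exact permutation p was 0.968 and the limma adjusted p 0.986. That interval describes the estimate and is not a limit of detection. The constant added to RPKM before logs were taken understates ratios of a gene this low, so the interval may be too narrow.

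Il33, an alarmin held in the nuclei of endothelial and stromal cells (chromosome 19, 29925114 to 29960718), was the agonist gene with the second largest difference. Its levels were 23.2, 12.7, 14.9, 20.2 and 24.4 RPKM in antibody replicates 1 to 5 and 10.6, 12.8, 15.2, 16.1 and 11.3 RPKM in vehicle replicates 1 to 5. Antibody replicates 1, 4 and 5 were above the vehicle range and replicates 2 and 3 within it, so the high libraries differed from those of Il1b in part. The fitted difference was 1.40-fold (log2 0.49, SE 0.19, 95% interval 1.04-fold to 1.89-fold, exact permutation p = 0.0714, limma adjusted p = 0.739). Il18, made by macrophages and other cells and matured like interleukin-1 beta by caspase-1, averaged 5.52 ± 2.20 RPKM after antibody and 5.73 ± 2.95 RPKM after vehicle (SD, n = 5 each; 0.992-fold, 95% interval 0.619-fold to 1.59-fold, with a limma adjusted p = 0.993). Its highest libraries were antibody replicate 4 with 9.10 RPKM and vehicle replicate 3 with 10.8 RPKM. The Il18 model of the file spans 50575273 to 50581837 on chromosome 9 with 714 bases of exon, and lacks the upstream part that GENCODE M21 annotates, so reads of that part are not in its value.

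Il1rn, the receptor antagonist (chromosome 2, 24336853 to 24351494), had a higher mean in antibody veins but a spread within each group that exceeded the difference. Its levels were 15.1, 9.29, 9.59, 3.33 and 1.54 RPKM in antibody replicates 1 to 5 and 3.53, 4.05, 9.31, 5.24 and 1.94 RPKM in vehicle replicates 1 to 5. Antibody replicate 5 held the lowest level of all 10 libraries and antibody replicate 1 the highest. Antibody over vehicle, the fit gave 1.37-fold (log2 0.45, SE 0.55, 95% interval 0.588-fold to 3.18-fold, exact permutation p = 0.500, limma adjusted p = 0.853), and the log2 difference was 0.14 without antibody replicate 1 and 0.87 without antibody replicate 5. Il18bp, whose product binds interleukin-18 (chromosome 7, 102015079 to 102018155), ran from 4.10 to 6.80 RPKM in antibody libraries and from 3.26 to 6.69 RPKM in vehicle libraries, so the groups overlapped. It averaged 4.94 ± 1.07 RPKM after antibody and 5.16 ± 1.37 RPKM after vehicle (SD, n = 5 each; 0.972-fold, 95% interval 0.728-fold to 1.30-fold, with a limma adjusted p = 0.968). GENCODE M21 gives Il18bp a wider span, 102014885 to 102018690. Reads of the parts outside the model of the file are not in its value.

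Il1r1, the signalling receptor for interleukin-1, was among the highest-level genes of the family (chromosome 1, 40225080 to 40317257). It stood at 44.8, 31.7, 38.8, 24.3 and 28.4 RPKM in antibody replicates 1 to 5 and at 24.6, 30.5, 28.1, 30.7 and 17.6 RPKM in vehicle replicates 1 to 5. Antibody replicates 1, 2 and 3 were above the vehicle range, replicates 4 and 5 within it. The fitted difference was 1.27-fold (log2 0.34, SE 0.20, 95% interval 0.939-fold to 1.71-fold, exact permutation p = 0.151, limma adjusted p = 0.756). A gene on the same strand, Gm38070, overlaps Il1r1 and held 3029 reads over all libraries, where Il1r1 held 1006 to 6805 in each.

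Il1rap, the accessory chain shared by the receptors for interleukin-1 and interleukin-33 (chromosome 16, 26581704 to 26730117), was the 1 gene of the 10 whose groups did not overlap, where 1.11% of all genes tested had groups that did not overlap, 0.666% with the antibody group above. It stood at 2.06, 2.30, 2.46, 1.54 and 1.50 RPKM in antibody replicates 1 to 5 and at 1.46, 1.35, 1.50, 1.37 and 1.07 RPKM in vehicle replicates 1 to 5. Antibody replicates 1, 2 and 3 stood well above the vehicle libraries, but replicate 5, at 1.501 RPKM, lay just above vehicle replicate 3, at 1.500 RPKM. Antibody over vehicle, the fit gave 1.32-fold (log2 0.40, SE 0.13, 95% interval 1.08-fold to 1.63-fold, with a limma adjusted p = 0.739, unadjusted 0.0124), and the exact permutation p of 0.00794 is the smallest that 5 against 5 can give. With scaling by medians of ratios the lowest antibody level was 1.483 RPKM and the highest vehicle level 1.502 RPKM, so that the groups then overlapped, as they did with scaling by library totals (1.461 and 1.522 RPKM).

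Il1r2, the decoy receptor (chromosome 1, 40074079 to 40125231), had the second largest difference. Its levels were 17.8, 8.60, 12.7, 2.73 and 2.76 RPKM in antibody replicates 1 to 5 and 1.82, 1.49, 4.75, 3.79 and 2.69 RPKM in vehicle replicates 1 to 5. As for Il1b, antibody replicates 1, 2 and 3 were above all vehicle libraries, and replicates 4 and 5 were within the vehicle range. The fitted difference was 2.34-fold (log2 1.22, SE 0.51, 95% interval 1.07-fold to 5.09-fold, exact permutation p = 0.0714, limma adjusted p = 0.739). Gm37347, on the same strand within the span of Il1r2, held 871 reads over all libraries, where Il1r2 held 46 to 342 in each, and reads of the pair may not be fully separable.

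Il1rl1 encodes the interleukin-33 receptor, as a membrane form and a soluble decoy form that a level per gene does not separate (chromosome 1, 40429570 to 40465415). It was low, at 1.69, 1.66, 0.747, 1.24 and 1.27 RPKM in antibody replicates 1 to 5 and 1.32, 1.55, 1.16, 0.765 and 1.42 RPKM in vehicle replicates 1 to 5. The ranges overlapped over most of their length (1.04-fold, SE 0.18 on the log2 scale, 95% interval 0.788-fold to 1.37-fold, exact permutation p = 0.730, limma adjusted p = 0.948).

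**Figure D2:**
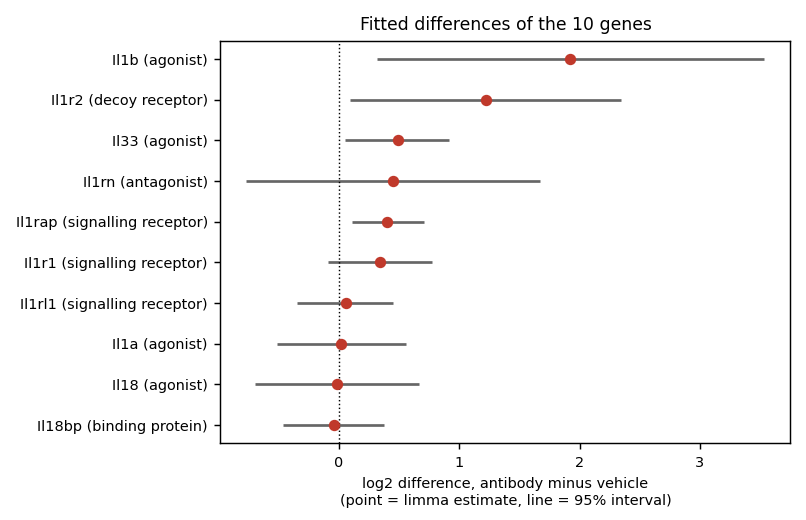
Fitted log2 difference, antibody minus vehicle, of each gene (points) with its 95% interval (lines), 5 libraries per group. Il1b at 1.92 and Il1r2 at 1.22 have the largest estimates and also the widest intervals with Il1rn, and none of the 10 passed after adjustment over all genes.

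In antibody veins the mean levels ran in the order Il1b (47.0 RPKM), Il1r1 (33.6), Il33 (19.1), Il1r2 (8.92), Il1rn (7.77), Il18 (5.52), Il18bp (4.94), Il1rap (1.97), Il1rl1 (1.32) and Il1a (0.488). In vehicle veins the order was Il1r1 (26.3 RPKM), Il1b (14.0), Il33 (13.2), Il18 (5.73), Il18bp (5.16), Il1rn (4.81), Il1r2 (2.91), Il1rap (1.35), Il1rl1 (1.24) and Il1a (0.479). Il1b exceeded Il1r1 in 4 libraries, antibody replicates 1, 2 and 3 and vehicle replicate 4. Il1r1 exceeded Il33, Il33 exceeded Il1rn, Il18bp exceeded Il1rap and Il1rl1 exceeded Il1a in 10 of 10 libraries. Il1r2 lay above both Il18 and Il18bp in antibody replicates 1, 2 and 3 and below both in antibody replicates 4 and 5 and in all 5 vehicle libraries. Il18 exceeded Il18bp in 2 antibody and 2 vehicle libraries, and Il1rn exceeded Il1r2 in 2 antibody and 4 vehicle libraries, so neither pair had a fixed order. In RPKM, Il1r1 thus stood above Il1rap, and Il33 above Il1rl1, in all 10 libraries. These orders rest on the single exon length used for each gene.

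Agonists were also set against their antagonist, decoy or binding protein in each library, as 5 ratios. Il1b over Il1rn was 5.74, 6.39, 5.83, 5.49 and 9.52 in antibody replicates 1 to 5 and 2.79, 0.446, 2.18, 6.12 and 3.14 in vehicle replicates 1 to 5. The ratio was thus narrow in the antibody group, although its libraries differed widely in both genes, and 4 of the 5 vehicle libraries lay below all antibody libraries. The difference of 2.78-fold on the log2(RPKM + 0.5) scale had an exact permutation p of 0.0317, and 0.159 after adjustment over the 5 ratios, so it did not pass. Leaving out vehicle replicate 4, the only vehicle library within the antibody range, separates the groups by construction and gave the smallest adjusted value that 5 against 4 allows, 0.0397 (log2 1.83). Without vehicle replicate 2 the log2 difference was 0.96 (adjusted exact p = 0.159). Il1r2 over Il1r1, decoy over signalling receptor, had a median of 0.271 in antibody and 0.123 in vehicle veins (1.84-fold, exact permutation p = 0.111, adjusted 0.278), and was below 1 in all 10 libraries. Il1a over Il1rn, Il18bp over Il18 and Il1rl1 over Il33 differed by 0.742-fold, 0.980-fold and 0.740-fold, with exact permutation p of 0.413, 0.929 and 0.183.

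**Figure D3:**
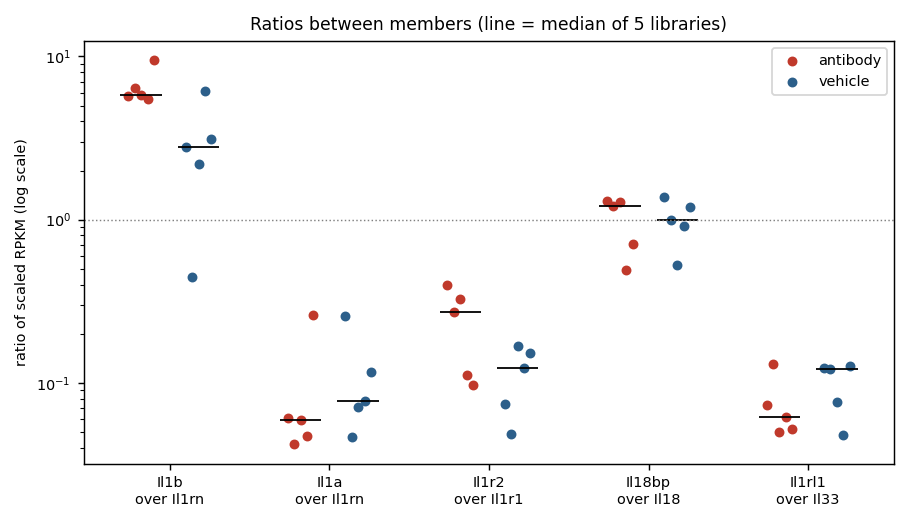
Ratio of scaled RPKM between members (vertical axis, log scale) in antibody libraries (left of each pair) and vehicle libraries (right), with a line at the median of 5. Il1b over Il1rn lies between 5.49 and 9.52 in antibody libraries and between 0.446 and 6.12 in vehicle libraries.

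Of the 45 pairs of genes, 1 passed as correlated across the 10 libraries after adjustment over the pairs. Il1b and Il1r2 had Pearson's r = 0.89 (permutation p = 4.00e-04, adjusted 0.0180) and Spearman's rho = 0.95 (permutation p = 1.00e-04, adjusted 0.00450). Leaving out the libraries farthest from the Il1b median, antibody replicate 1 and vehicle replicate 2, gave r = 0.87, and the deviations from the group means gave r = 0.82. Since antibody replicates 1, 2 and 3 stand apart in both genes, the relation was also computed over the other 7 libraries, where r was 0.80 (exact permutation p = 0.0270) and rho 0.89 (exact permutation p = 0.0123). Those left out were picked by their values in these same genes, so these p-values describe the 7 libraries and are not a further test. Il1rn had r = 0.82 with Il1r2 (permutation p = 0.00419, adjusted 0.0581), Il1rap had r = 0.82 with Il1r2 (p = 0.00524, adjusted 0.0581) and r = 0.78 with Il1b (p = 0.00775, adjusted 0.0581), and Il1rn had r = 0.77 with Il1r1 (p = 0.00753, adjusted 0.0581), by permutation, and none of these passed. Il33 and its receptor gene Il1rl1 had r = -0.04 (permutation p = 0.917, adjusted 0.982).

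**Figure D4:**
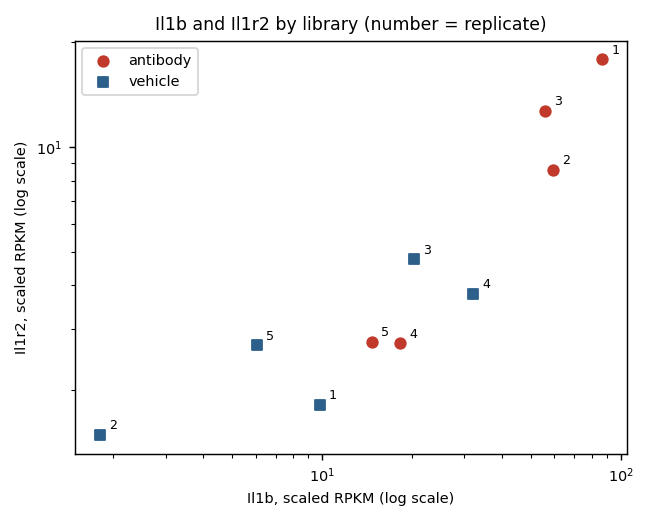
Il1b (horizontal) and Il1r2 (vertical) in scaled RPKM on log axes, circles for antibody and squares for vehicle libraries, each labelled by replicate number. Antibody replicates 1, 2 and 3 lie at the upper right, and the other 7 libraries run from vehicle replicate 2 at the lower left upwards.

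The genes whose levels across the 10 libraries were most like each member were taken from 12768 genes by Pearson's r, with no test since they are the best of many. For Il1b they included the pseudogene Gad1-ps (0.965) and Mefv (0.964), which encodes pyrin. For Il1r2 they were Nfkbie (0.988), an inhibitor of NF-kappaB, Traf1 (0.978) and Csf3r (0.977), the receptor of G-CSF. For Il1rn they were Rap1gds1 (0.966), Gdi2 (0.957) and Gp49a (0.953), and for Il1rap Tra2a (0.965), Nrp2 (0.963) and Cd244a (0.949). Il18bp was closest to B2m (0.951), the light chain of MHC class I, Cd83 (0.940) and Tapbp (0.936), which loads peptide on MHC class I. Il1r1 was closest to Tbc1d15 (0.985), Chd8 (0.975) and Tgfbr1 (0.953), and Il33 to Ubqln1 (0.941), Caap1 (0.937) and Hlx (0.912). The best matches of Il1a (E2f5, 0.941), Il18 (Slc22a4, 0.900) and Il1rl1 (B3glct, 0.864) were weaker than those of Il1b and Il1r2.

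Markers of neutrophils ran along with Il1b and Il1r2. Their summed level over 12 listed genes was 290, 278, 434, 65.3 and 65.9 RPKM in antibody replicates 1 to 5 and 52.8, 42.5, 119, 181 and 52.2 RPKM in vehicle replicates 1 to 5. The same 3 antibody libraries were above the vehicle range, and vehicle replicates 3 and 4 were the highest of the vehicle libraries, as for Il1b and Il1r2. All 10 tested neutrophil markers had a fitted difference above 0 (median log2 0.90), against 48.8% of all genes tested. After adjustment 0 of them passed, and no listed marker was at 0 in all libraries. The largest parts of the sum were S100a9, at 98.8 RPKM after antibody and 34.6 RPKM after vehicle, and S100a8, at 53.8 and 19.6 RPKM. The defining neutrophil gene Ly6g was at 0.168 ± 0.192 RPKM after antibody and 0.149 ± 0.0988 RPKM after vehicle (SD, n = 5 each), too low to be tested. Monocyte and macrophage markers summed to 1398 to 2248 RPKM after antibody and 1731 to 2515 RPKM after vehicle, with 4 of 12 above 0. The other 8 were below 0. Lyz2 was the largest part, with a mean of 876 RPKM after antibody and 1089 RPKM after vehicle. Ccr2 averaged 14.7 ± 4.11 RPKM after antibody and 8.29 ± 3.04 RPKM after vehicle (SD). Itgam averaged 33.8 ± 8.71 RPKM after antibody and 27.1 ± 3.53 RPKM after vehicle. The sum therefore says little about these lower-level markers. T and NK cell markers summed to 7.60 to 43.1 RPKM after antibody and 9.36 to 16.6 RPKM after vehicle, highest in antibody replicate 1. The part of these cells in the differences of Il1b, Il1r2 and Il1rn was not tested.

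For Il33 and Il1rl1 the cells of interest are stromal cells, endothelium, mast cells and type 2 innate lymphoid cells. Fibroblast markers summed to 6998 to 7893 RPKM after antibody and 7179 to 11157 RPKM after vehicle. Of the 8, 7 were below 0 and 1 above (median log2 -0.24), where 48.8% of all genes tested were above. Most of the sum was Col3a1, at 3000 RPKM after antibody and 3595 RPKM after vehicle, and Col1a1, at 2598 and 2975 RPKM. Pdgfra was at 46.3 ± 4.74 against 45.8 ± 5.73 RPKM, so the sum may not measure the number of fibroblasts. Mast cell markers summed to 31.8 to 54.0 RPKM after antibody and 22.3 to 83.0 RPKM after vehicle. Of 7 markers of type 2 innate lymphoid cells, 4 (Il13, Il5, Areg and Klrg1) were too low to be tested, and the list summed to 8.41 to 33.9 RPKM after antibody and 5.53 to 20.1 RPKM after vehicle. Most of that sum was Arg1, at 12.6 RPKM after antibody and 6.01 RPKM after vehicle, and Il7r, at 5.42 RPKM after antibody and 4.36 RPKM after vehicle, which macrophages and T cells also express, so the sum does not measure these lymphoid cells. Markers of adipocytes summed to 124, 46.0, 35.0, 345 and 190 RPKM in antibody replicates 1 to 5. In vehicle replicates 1 to 5 the sums were 92.7, 106, 101, 121 and 142 RPKM. Antibody replicates 1, 4 and 5, the antibody libraries highest in Il33, were also those highest in adipocyte markers. The vehicle library highest in these markers, replicate 5, had Il33 at 11.3 RPKM. Vehicle replicate 4, the vehicle library highest in Il33 at 16.1 RPKM, came next in the markers. The part of these cells in the levels of Il33 and Il1rl1 was not tested. Keratinocyte genes, markers of an epithelium rich in Il1a and Il33, summed to 2.53 to 3.25 RPKM after antibody and 2.55 to 4.59 RPKM after vehicle. Most of that sum was Sfn, at 2.16 RPKM after antibody and 2.19 RPKM after vehicle. Krt5, Krt14, Krt1 and Dsg3 were too low to be tested.

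The other receptor genes of the chromosome 1 cluster lie downstream of Il1r2 in the order Il1r1, Il1rl2, Il1rl1, Il18r1 and Il18rap, within 478 kb. Il18rap, the accessory chain of the interleukin-18 receptor, was at 1.99 ± 1.17 RPKM after antibody and 0.769 ± 0.251 RPKM after vehicle (SD, n = 5 each; 1.80-fold, SE 0.32 on the log2 scale, limma adjusted p = 0.739). Il18r1, its ligand-binding chain, was at 0.861 ± 0.543 against 0.438 ± 0.196 RPKM (1.40-fold, limma adjusted p = 0.739). Il1rl2, the interleukin-36 receptor between Il1r1 and Il1rl1, was at 6.87 ± 0.830 against 7.81 ± 1.18 RPKM (0.889-fold, limma adjusted p = 0.779), so fitted differences along the cluster had both signs. Sigirr, an inhibitory receptor of the family encoded elsewhere, was at 1.76 ± 0.244 against 1.75 ± 0.181 RPKM. Of the 6 other receptor genes listed, 4 could be tested and 0 passed. The interleukin-36 gene Il36g, at 5.85 ± 4.82 RPKM after antibody and 2.65 ± 2.64 RPKM after vehicle, was the only one of 5 further ligand genes with enough reads to be tested (limma adjusted p = 0.801).

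**Figure D5:**
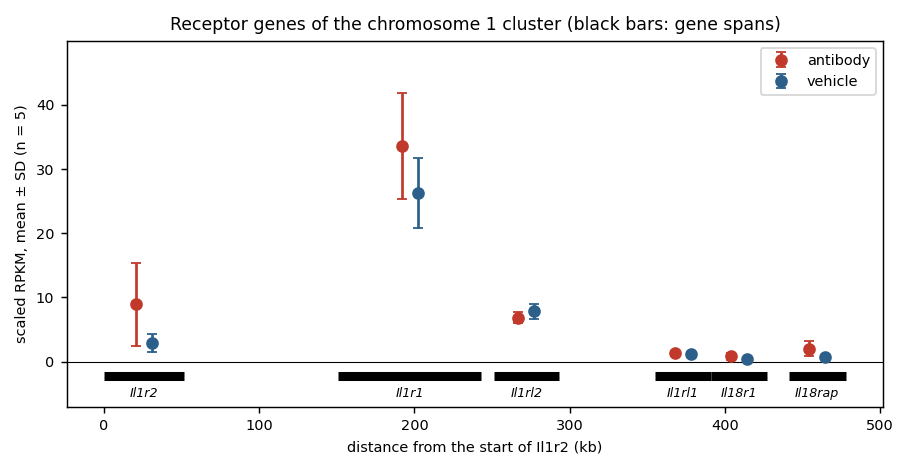
Mean and SD (n = 5) in scaled RPKM of the 6 receptor genes of the chromosome 1 cluster, antibody left and vehicle right of each gene's midpoint, by distance from the start of Il1r2 in kb. Black bars mark the gene spans. Il1r1 has the highest level, and means are higher in antibody veins for each gene except Il1rl2.

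Downstream of the receptors, 21 of 21 listed adaptor, kinase and NF-kappaB genes were tested, 15 with a fitted difference above 0 and 6 below (median log2 0.06), and 0 passed after adjustment. Tab3, which links TRAF6 to the kinase TAK1, was at 2.07 ± 0.214 RPKM after antibody and 1.59 ± 0.0907 RPKM after vehicle (SD, n = 5 each), and Ikbkb, a kinase of the inhibitors of NF-kappaB, at 4.79 ± 0.485 against 3.91 ± 0.0860 RPKM. Chuk, the partner kinase, was at 6.80 ± 0.696 against 5.61 ± 0.495 RPKM, and Tollip, a restraint on the receptor complex, at 10.3 ± 0.540 against 11.7 ± 0.881 RPKM. Groups did not overlap for Tab3 and Ikbkb, with antibody above, as for 0.666% of all genes tested, and each of the 4, named for having the smallest p of the 21, had a limma adjusted p of 0.739. Myd88 itself stood at 18.1 RPKM after antibody and 17.6 RPKM after vehicle on average.

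Genes for the maturation and release of interleukin-1 beta and interleukin-18 were tested in 15 of 17 cases, 11 above 0 and 4 below (median log2 0.16), with 0 passing. Mefv, whose pyrin forms an inflammasome, was at 9.59 ± 4.71 RPKM after antibody and 3.82 ± 2.10 RPKM after vehicle (SD, n = 5 each; 2.34-fold, SE 0.41 on the log2 scale). Casp4, the caspase that senses intracellular lipopolysaccharide, was at 7.26 ± 1.59 against 5.28 ± 0.657 RPKM, Nlrp1b, an inflammasome sensor, at 2.65 ± 0.434 against 2.06 ± 0.287 RPKM, and the calpain gene Capn1 at 15.2 ± 1.88 against 17.9 ± 0.755 RPKM. These 4 had a limma adjusted p of 0.739. Casp1, the protease that cleaves both precursors, averaged 7.38 RPKM after antibody and 6.56 RPKM after vehicle.

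Genes known to be induced by interleukin-1 had a fitted difference above 0 in 17 of 17 tested of 21 listed (median log2 0.56), against 48.8% of all genes tested. At an unadjusted limma p below 0.05, 8 of the 17 were higher, against 3.55% of all genes, and 0 passed after adjustment. The list includes genes that neutrophils or other stimuli also raise, and it was drawn up with earlier results of these data known. Its members of smallest p were Saa3, Nfkbiz, Cxcl1 and Cxcl5, each with a limma adjusted p of 0.739. Saa3, a serum amyloid A of inflamed tissue, was at 119 ± 48.4 RPKM after antibody and 25.0 ± 17.1 RPKM after vehicle (SD, n = 5 each; 5.19-fold, SE 0.54 on the log2 scale). Nfkbiz, a co-regulator of NF-kappaB, was at 18.7 ± 3.73 RPKM after antibody and 12.4 ± 1.47 RPKM after vehicle (1.48-fold, SE 0.14). The neutrophil attractants Cxcl1 and Cxcl5 had fitted ratios of 2.28-fold (SE 0.37) and 3.72-fold (SE 0.63). The neutrophil marker sum, 65.3 to 434 RPKM after antibody and 42.5 to 181 RPKM after vehicle, also had its highest values after antibody, and its part in this list was not tested. Ccl2, a monocyte attractant, averaged 27.1 RPKM after antibody and 26.0 RPKM after vehicle, and the adhesion gene Icam1 21.5 RPKM after antibody and 18.2 RPKM after vehicle.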

How the data were processed

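RNA of fistula outflow veins was sequenced as 10 libraries, 5 antibody and 5 vehicle, grouped by sample titles. The labels' protocols give the TruSeq V2 kit and an input of 0.5 µg total RNA, and the submitters' processing notes name mm10. Not given in the sources used here are aligner, counter, strand use and annotation. The authors deposited RPKM, per the file headers, with their averages per group, which were not used.

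RPKM multiplied by gene length plus 1 base gave whole reads for 100% of values within 0.001, so the depth is known (4282872 to 34271554 reads), and 3 reads equal 0.700 CPM in the shallowest library. Names for 42462 IDs came from the reference, and 884 IDs kept the file's name. RPKM were divided by trimmed-mean-of-M-values factors (0.841 to 1.13). Genes were kept with at least 5 libraries at 0.513 CPM, which is 10 reads at median depth, and 15 reads in total. limma 3.58.1 in R 4.3.3, with trended variance, tested log2(scaled RPKM + 0.5), antibody minus vehicle, two-sided, with Benjamini-Hochberg adjustment over 17859 genes and a threshold of 0.05; fold changes on that scale understate those of low genes. Exact permutation tests used 252 assignments; correlations used 100000 permutations. The procedure was tested on simulated data.

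Genes named are the 10 members, the 4 tested genes of smallest p in each pathway list, and the 3 genes most like each member among genes averaging a log2 CPM of 1 or more. A gene chosen this way is not reported here. The choice of Myd88, Casp1, Ccl2, Icam1, Ly6g and Gm27598 followed sight of their values. Members and lists were chosen with earlier results of these data known. Alternatives covered scaling, pseudocount, filter, voom on the recovered reads, library weights, a replicate block and left-out libraries.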

Additional observations from a re-analysis of the deposited data

Results flagged for a closer look

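In 4 of 30 groups of 5 libraries examined (10 genes and 5 ratios in each treatment group), 1 library lay apart from the other 4 by Dixon's criterion, which chance meets in about 1 of 20 groups. All 4 were in the antibody group. Il18bp stood at 6.80 RPKM in antibody replicate 1, with the next library at 4.80 RPKM. Il1b over Il1rn was 9.52 in antibody replicate 5, with the next at 6.39, and Il1a over Il1rn was 0.262 in the same library, with the next at 0.0610. This library had the lowest Il1rn level of all, 1.54 RPKM on 107 reads, so the pair of ratios shares a denominator. Il1rl1 over Il33 was 0.131 in antibody replicate 2, with the next at 0.0729.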

How the results depend on the processing

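No gene of the family passed after adjustment under any alternative run. Il1b, Il33, Il1rn, Il1r1, Il1rap and Il1r2 stayed higher in antibody veins in all 20 alternatives each; with 1 library left out their log2 differences ran from 1.39 to 2.35, 0.39 to 0.62, 0.14 to 0.87, 0.21 to 0.45, 0.33 to 0.48 and 0.90 to 1.53. The sign was not stable for Il1a (-0.03 with library weights, -0.17 with limma-voom, -0.12 to 0.17 with 1 library left out), Il18 (0.07 with library totals, 0.07 with limma-voom, -0.20 to 0.23), Il18bp (0.04 with library totals, 0.23 leaving out the 4 libraries with most Kap, a kidney transcript, -0.18 to 0.06) and Il1rl1 (-0.06 to 0.19). Among ratios, Il1b over Il1rn ran from 0.96 to 1.83 with 1 library left out, passing only without vehicle replicate 4, the 1 vehicle library within the antibody range, Il18bp over Il18 from -0.23 to 0.18, and without the 4 libraries highest in Kap Il18bp over Il18 was 0.40 and Il1a over Il1rn 0.20. The cause was not tested. Without a filter 1 gene of the table was called, Gm27598, with 0 reads in antibody and 8 in vehicle libraries (limma adjusted p = 0.0404), and otherwise 0 genes, with 572 to 1500 at an unadjusted p below 0.05 among the settings that kept the filter. With the replicate number as a block the Il1b difference was 1.92 (limma adjusted p = 0.683) and 0 genes were called. Deviations of same-numbered libraries from their group means had correlations of -0.1 to 0.35. Only antibody replicate 3 was closest to the vehicle library of its own number. These values show no clear pairing by number but cannot exclude it. Il1a was not tested under the stricter filter. Depth limits Il1a, read 4 times in the library with fewest reads of it.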
